A study of Homo sapiens with 6 samples.

Results

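Solute carriers (SLC) of the plasma membrane and of intracellular vesicles were compared between IGROV1 Res cells, which are resistant to the PI3K inhibitor GDC0032, and IGROV1 Sen cells, which are sensitive to it. The 168 members are the genes with a symbol of the form SLC, family number, A and member number, without the mitochondrial carriers of family 25. They were chosen by symbol alone, out of 14646 genes in the table of counts, 13200 of which had a symbol. IGROV1 is a *PIK3CA*-mutated ovarian cancer cell line. IGROV1 Res cells were derived from the parental line by months of exposure to rising concentrations of GDC0032, and whether they are 1 clone or a pool is not given in the sources used here. RNA of 3 libraries per group was sequenced. The sample names hold the letters UT, unexplained, taken here to mean that no GDC0032 was present. The authors' methods for RNA sequencing describe cells given GDC0032 or DMSO, and no label used here says whether these cells received DMSO. No label states whether the 3 libraries of a group came from separate cultures, so the p-values reflect only how far these libraries spread.

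Solute carriers are membrane proteins that move amino acids, sugars, ions, metals, vitamins and other small solutes by facilitated diffusion, exchange, or cotransport with sodium or protons. They are grouped into families by sequence, and each family has a typical solute. Some work as pairs, such as the system L transporter, in which the glycoprotein SLC3A2 (also called 4F2hc or CD98) brings a light chain of family 7 to the cell surface. In cancer cells, carriers of glucose and of essential amino acids feed growth and are known to lie downstream of PI3K and mTOR signalling.

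Levels are given as CPM, read counts relative to the total of the library, normalized by TMM to allow for its make-up, and lists of 3 values follow replicates 1, 2 and 3. Library totals were 12808922 to 15241394 counts, so 3 counts in 1 library stood for 0.197 to 0.234 CPM. Calls of upregulation and downregulation rest on edgeR's quasi-likelihood test over 13791 genes and on a p adjusted by Benjamini and Hochberg of less than 0.05. Log2 fold changes are those of IGROV1 Res over IGROV1 Sen, given with its standard error (SE). Mitochondrially encoded genes took 12.8%, 10.1% and 6.94% of the counts in IGROV1 Res, against 7.02%, 12.6% and 12% in IGROV1 Sen, and IGROV1 Sen replicates 2 and 3 resembled each other most, their chi-square divided by its degrees of freedom being 1.47, against 11.9 to 32.7 for the other pairs of 1 group. Of 10 epithelial or Müllerian markers, 7 were among the genes of the table. PAX8 averaged 819 CPM in IGROV1 Res and 832 CPM in IGROV1 Sen, whereas CDH1 and EPCAM averaged 0.611 to 1.93 CPM in either group. The keratin KRT18 averaged 1063 CPM in IGROV1 Res and 295 CPM in IGROV1 Sen (log2 fold change 1.85, edgeR adjusted p = 1.23e-05), and KRT8 averaged 53.8 CPM in IGROV1 Res and 7.94 CPM in IGROV1 Sen (log2 fold change 2.75, edgeR adjusted p = 5.12e-05). EPCAM was also called (log2 fold change 1.38, edgeR adjusted p = 0.0351). KRT19 was not called, at 282 CPM in IGROV1 Res and 320 CPM in IGROV1 Sen (log2 fold change -0.18, edgeR adjusted p = 0.195). The summed level of the 7 markers was 2250, 2410 and 2010 CPM in IGROV1 Res, against 1370, 1520 and 1480 CPM in IGROV1 Sen. Most of that difference lay in KRT18. Neither the 4 leukocyte nor the 2 erythroid markers were among the genes of the table. The summed level of the 2 endothelial markers present of 3 listed was 175 to 178 CPM in IGROV1 Res, against 114 to 142 CPM in IGROV1 Sen, and that of the 3 fibroblast markers present of 5 was 26.7 to 45.2 CPM in IGROV1 Res, against 20.2 to 23.2 CPM in IGROV1 Sen. Among the fibroblast markers, PDGFRB averaged 27 CPM in IGROV1 Res and 8.46 CPM in IGROV1 Sen (log2 fold change 1.68, edgeR adjusted p = 0.000836). LUM was also upregulated (log2 fold change 5.65, edgeR adjusted p = 0.000356). COL1A1 went the other way, at 7.70 CPM in IGROV1 Res and 13.7 CPM in IGROV1 Sen (log2 fold change -0.84, edgeR adjusted p = 0.0311). The part of all these markers in the results was not tested.

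The genes whose promoters follow were chosen for the amino acid results. SLC7A5, SLC3A2 and SLC1A5 are upregulated carriers of large neutral amino acids and glutamine, and SLC7A8 and SLC1A4 are the close relatives of SLC7A5 and SLC1A5 that were downregulated. Each line holds the 250 bases before the RefSeq start of the gene, read 5′ to 3′ on the strand of the gene. In the order shown, they lie at chr16:87869508-87869757 on the minus strand, chr11:62881449-62881698 on the plus strand, chr19:46788595-46788844 on the minus strand, chr14:23155321-23155570 on the minus strand and chr2:64988229-64988478 on the plus strand of GRCh38.p14. The windows of SLC3A2 and SLC7A8 lie within the span of these genes in GENCODE, which runs from 62856102 to 62888875 on chromosome 11 and from 23125295 to 23183674 on chromosome 14, so they precede an internal start of the gene and not its outermost one. Capitals mark matches to any of 3 motifs searched on both strands.
SLC7A5: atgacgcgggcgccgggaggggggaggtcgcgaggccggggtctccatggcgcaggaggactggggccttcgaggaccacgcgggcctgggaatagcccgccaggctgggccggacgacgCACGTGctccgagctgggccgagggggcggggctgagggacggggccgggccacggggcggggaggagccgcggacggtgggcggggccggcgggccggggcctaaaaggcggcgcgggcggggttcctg
SLC3A2: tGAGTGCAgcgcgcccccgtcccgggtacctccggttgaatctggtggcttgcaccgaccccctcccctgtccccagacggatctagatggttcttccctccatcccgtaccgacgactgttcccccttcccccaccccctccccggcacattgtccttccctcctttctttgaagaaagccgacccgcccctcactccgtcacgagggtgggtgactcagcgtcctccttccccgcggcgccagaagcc
SLC1A5: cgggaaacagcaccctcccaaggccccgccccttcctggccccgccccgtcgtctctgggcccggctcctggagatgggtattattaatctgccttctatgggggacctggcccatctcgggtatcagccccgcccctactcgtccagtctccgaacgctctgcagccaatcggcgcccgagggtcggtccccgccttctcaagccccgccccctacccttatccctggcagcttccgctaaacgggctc
SLC7A8: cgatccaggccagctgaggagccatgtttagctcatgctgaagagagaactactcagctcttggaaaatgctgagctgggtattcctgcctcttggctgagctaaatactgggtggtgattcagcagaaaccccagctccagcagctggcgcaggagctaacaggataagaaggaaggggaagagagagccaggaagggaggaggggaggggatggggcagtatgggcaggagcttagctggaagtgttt
SLC1A4: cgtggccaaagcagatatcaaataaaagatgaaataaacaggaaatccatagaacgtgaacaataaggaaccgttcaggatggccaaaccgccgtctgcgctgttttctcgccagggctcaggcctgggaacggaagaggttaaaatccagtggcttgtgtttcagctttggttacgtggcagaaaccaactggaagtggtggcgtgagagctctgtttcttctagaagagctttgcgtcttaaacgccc
The motifs were the CARE element bound by ATF4 and CEBP factors (TGATGNAAN), the E-box bound by MYC and MAX (CACGTG), and the core of the metal response element bound by MTF1 (TGCACNC or TGCGCNC). SLC7A5 had 1 E-box, whose first base lay at -130 from the start, and SLC3A2 had 1 match to the metal core at -249. The other windows held none of the 3 motifs.

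RefSeq promoters were matched for 133 of the 168 members. The E-box stood in 9.02% of them, against 6.34% of all 35116 promoters. CARE stood in 3.01% of the members, against 3.13% of all promoters, and the metal core in 26.3%, against 24.8%. The windows of the members had a median GC content of 65.6%, against 58.0% of all promoters. SLC7A5 stood well above both, at 79.6%, and SLC1A4 below both, at 48.4%. A match is only a description of the letters in these windows.

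Of the 168 members, 159 passed the filter on low counts. Among those tested, 42 were upregulated (26.4%, against 17.4% of all genes tested) and 30 were downregulated (18.9%, against 18.3%). The share of upregulated members was thus above the background and that of downregulated members close to it. The median log2 fold change was 0.04 over the members tested and -0.01 over all genes tested. Members took 1.06%, 1.02% and 1.04% of all counts in IGROV1 Res, against 0.929%, 0.842% and 0.849% in IGROV1 Sen, with no overlap between groups. A large part of that difference lay in SLC7A5 alone, which averaged 1282 CPM in IGROV1 Res and 462.5 CPM in IGROV1 Sen. In these bulk libraries, fewer cells expressing a gene and less RNA per cell cannot be told apart. With IGROV1 Sen replicate 2 left out, 24 members were upregulated (14.7%, against 11.3% of all genes in that fit), and with IGROV1 Res replicate 2 left out, 27 were (17%, against 12.2%), so that calls over all genes fell in number as well. At a log2 fold change of at least 1, 11 members were upregulated (6.92%, against 4.50% of all genes) and 16 downregulated (10.1%, against 5.88%).

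Groups did not overlap in 94 of the members tested (59.1%, against 47.8% of all genes). Of the members tested, 53 were higher in IGROV1 Res without overlap (33.3%, against 23.4% of all genes). Another 41 were lower without overlap (25.8%, against 24.5%), a share close to that of all genes. Among the 72 called members, only SLC26A6, described below, had overlapping groups. Shares of called members were also taken by mean level over all libraries. Of the 49 members above 50 CPM on average, 18 were upregulated (36.7%, against 20.7% of all genes at that level) and 9 downregulated (18.4%, against 20.8%). Of the 41 tested members under 5 CPM, 7 were upregulated (17.1%, against 11.7%) and 10 downregulated (24.4%, against 14.2%).

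**Figure D1:**
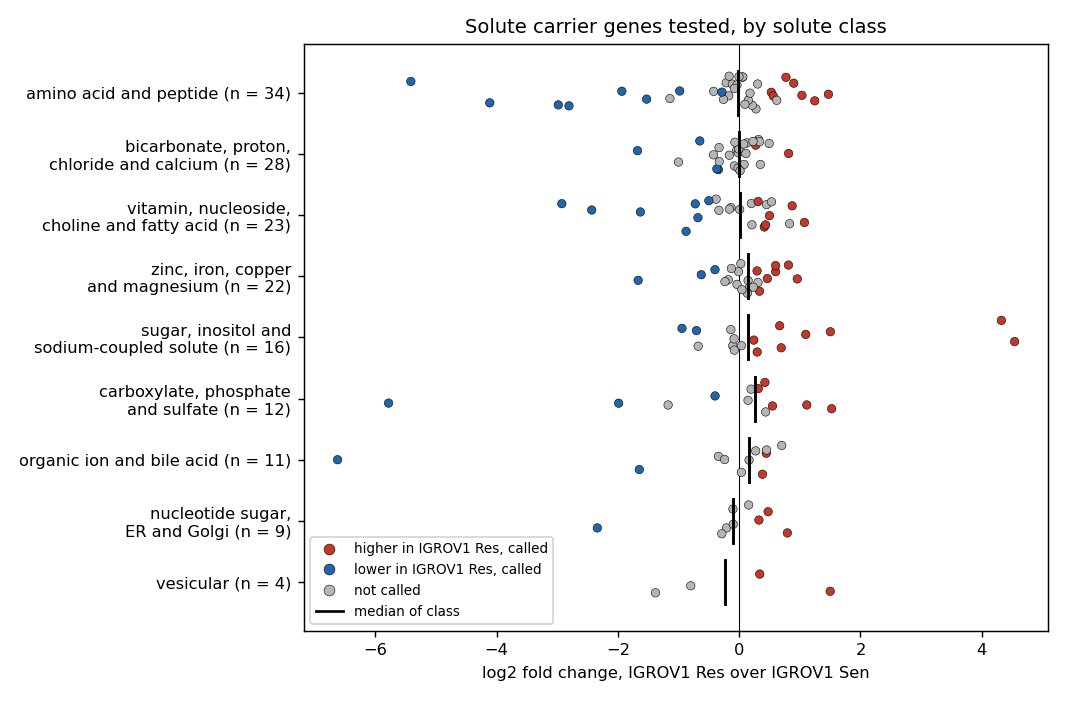
Log2 fold change of IGROV1 Res over IGROV1 Sen (x axis) of the 159 solute carrier genes tested, 1 point per gene, by solute class (rows). Red points are the 42 called upregulated, blue points the 30 called downregulated, grey points the others, and black bars the class medians, which lie between -0.23 and 0.26.

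Over all genes tested, 17.4% were upregulated and 18.3% downregulated. Carriers of sugars, inositol and sodium-coupled solutes had 8 of 16 tested members upregulated (50%) and 2 downregulated (12.5%). The 8 included the iodide carrier SLC5A5. They also included the vitamin carrier SLC5A6 and SLC2A8, both chosen after their values were seen. SLC5A6 lost its call when any single library other than IGROV1 Sen replicate 1 was left out (edgeR adjusted p = 0.0536 to 0.189). SLC2A8 lost its call without replicate 2 or 3 of either group (edgeR adjusted p = 0.0724 to 0.135). Over all genes, 11.3% and 11% were upregulated without IGROV1 Sen replicate 2 and replicate 3. Carriers of carboxylates, phosphate and sulfate had 5 of 12 upregulated (41.7%) and 3 downregulated (25%). Metal carriers had 7 of 22 upregulated (31.8%) and 3 downregulated (13.6%). Carriers of vitamins, nucleosides, choline and fatty acids had 6 of 23 upregulated (26.1%) and 7 downregulated (30.4%). Amino acid carriers had 7 of 34 upregulated (20.6%) and 8 downregulated (23.5%), both near the shares of all genes. Ion carriers, the second class by size, had 2 of 28 upregulated (7.14%), a low count that depended on single libraries, as given below. They had 4 downregulated (14.3%), near the share of all genes.

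**Figure D2:**
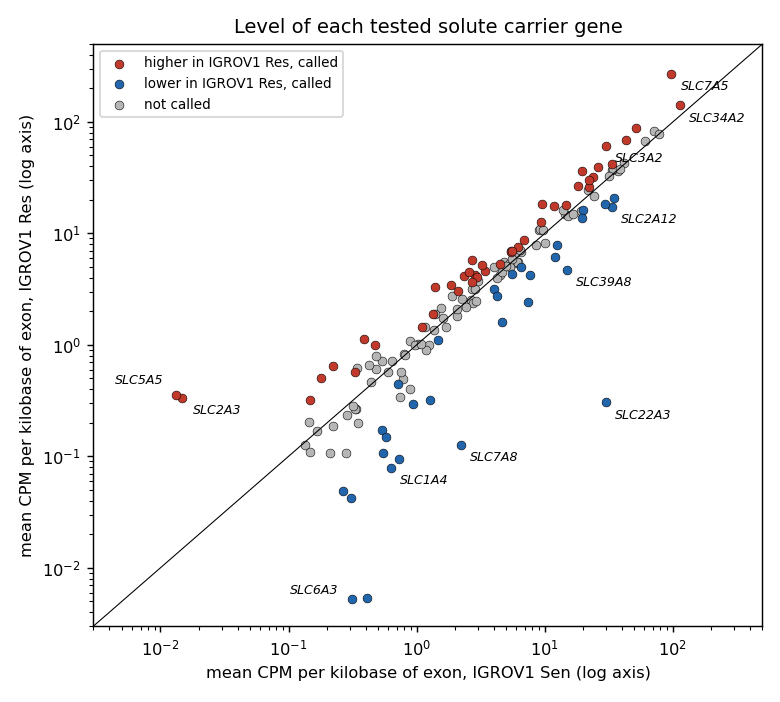
Mean level per kilobase of exon of each tested solute carrier gene in IGROV1 Res (y axis) against IGROV1 Sen (x axis), in CPM per kilobase on log axes, with the diagonal of equal levels. SLC7A5 and SLC34A2 had the highest levels, and SLC22A3, SLC7A8 and SLC6A3 lie far below the diagonal.

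Per kilobase of exon, the most abundant members over all 6 libraries were SLC7A5, at 183.9 CPM per kilobase, and SLC34A2, at 126.8. SLC39A7, SLC26A2 and SLC1A5 followed at 77.6, 77.2 and 70.1 CPM per kilobase. They carry large neutral amino acids, phosphate, zinc, sulfate and glutamine.

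Amino acid carriers moved in both directions, often within 1 family. The system L pair SLC3A2 and SLC7A5, the cystine carrier SLC7A11 and the glutamine carrier SLC1A5 were upregulated, whereas SLC7A8, a second light chain of SLC3A2, and SLC1A4, the nearest relative of SLC1A5, were downregulated. The main carriers of system A, which take up small neutral amino acids with sodium, were not called.

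SLC7A5 (LAT1), the light chain that exchanges leucine and other large neutral amino acids (ENSG00000103257, chromosome 16 from 87830023 to 87869488 of GRCh38), had 1262, 1187 and 1398 CPM in IGROV1 Res, against 687, 355 and 346 CPM in IGROV1 Sen. Its log2 fold change was 1.47 (SE 0.24, edgeR adjusted p = 0.00138). SLC3A2, its heavy chain, had 307, 304 and 340 CPM in IGROV1 Res, against 202, 133 and 130 CPM in IGROV1 Sen, with a log2 fold change of 1.03 (SE 0.16, edgeR adjusted p = 0.000978). In both genes the groups did not overlap, and IGROV1 Sen replicate 1 lay nearest to the IGROV1 Res libraries. SLC7A11 (xCT), which joins SLC3A2 to exchange cystine for glutamate, had 32.8, 30.5 and 32.4 CPM in IGROV1 Res, against 16.5, 10.97 and 13.03 CPM in IGROV1 Sen. It was upregulated as well (log2 fold change 1.25, SE 0.15, edgeR adjusted p = 0.000224). SLC7A7, the y+LAT1 light chain for cationic and neutral amino acids, had a log2 fold change of 0.56 (edgeR adjusted p = 0.0143). That call was lost without IGROV1 Res replicate 2 or IGROV1 Sen replicate 2 (edgeR adjusted p = 0.0594 and 0.0631).

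SLC7A8 (LAT2) went the other way. It had 1.17, 0.770 and 0.350 CPM in IGROV1 Res, against 11.8, 14.7 and 13.3 CPM in IGROV1 Sen, a log2 fold change of -4.11 (SE 0.29, edgeR adjusted p = 1.14e-05). All IGROV1 Res libraries were far below all IGROV1 Sen libraries. SLC3A1, the heavy chain of the renal cystine transporter, had 11.98, 8.90 and 10.5 CPM in IGROV1 Res, against 25.3, 31.9 and 33.2 CPM in IGROV1 Sen (log2 fold change -1.53, SE 0.15, edgeR adjusted p = 8.22e-05). In this gene 51.8% of 60-base exon windows are shared with other genes, most of them with the overlapping PREPL, whose own log2 fold change was -0.03 (edgeR adjusted p = 0.872). Per kilobase, SLC7A5 made up 90.9% of the summed level of family 7 in IGROV1 Res, against 76.3% in IGROV1 Sen, and the family sum was 293, 277 and 321 CPM per kilobase in IGROV1 Res, against 176, 101 and 99.8 in IGROV1 Sen. SLC3A2 made up 97.5% of family 3 in IGROV1 Res, against 86.1% in IGROV1 Sen. SLC7A1, the main carrier of arginine and lysine, had 117, 122 and 131 CPM in IGROV1 Res, against 171, 134 and 138 CPM in IGROV1 Sen, and was not called (log2 fold change -0.26, edgeR adjusted p = 0.0848). SLC7A6 was not called either, with a log2 fold change of 0.22 (edgeR adjusted p = 0.288), and 50.3% of its exon windows are shared with other genes.

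SLC43A2 (LAT4), which carries branched-chain amino acids and phenylalanine without a heavy chain, had 33.5, 39.8 and 36.5 CPM in IGROV1 Res, against 19.3, 20.5 and 18.99 CPM in IGROV1 Sen (log2 fold change 0.90, SE 0.10, edgeR adjusted p = 0.000196). SLC1A5 (ASCT2), the sodium-dependent exchanger of glutamine, had 269, 297 and 318 CPM in IGROV1 Res, against 200, 159 and 160 CPM in IGROV1 Sen. Its log2 fold change was 0.77 (SE 0.11, edgeR adjusted p = 0.000666), and 20.9% of its exon windows are shared with other genes. SLC1A4 (ASCT1), which carries alanine, serine and cysteine, was at low levels, with 0.585, 0.560 and 0.490 CPM in IGROV1 Res, against 3.15, 3.96 and 5.96 CPM in IGROV1 Sen (log2 fold change -2.98, SE 0.34, edgeR adjusted p = 0.000186). So 2 neutral amino acid exchangers of family 1 moved in opposite directions, each without overlap between groups. The glutamate carrier SLC1A3 had 132, 76.5 and 73.8 CPM in IGROV1 Res, against 82.2, 89.1 and 100 CPM in IGROV1 Sen. These groups overlapped, with IGROV1 Res replicate 1 above and its replicates 2 and 3 below all IGROV1 Sen libraries.

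**Figure D3:**
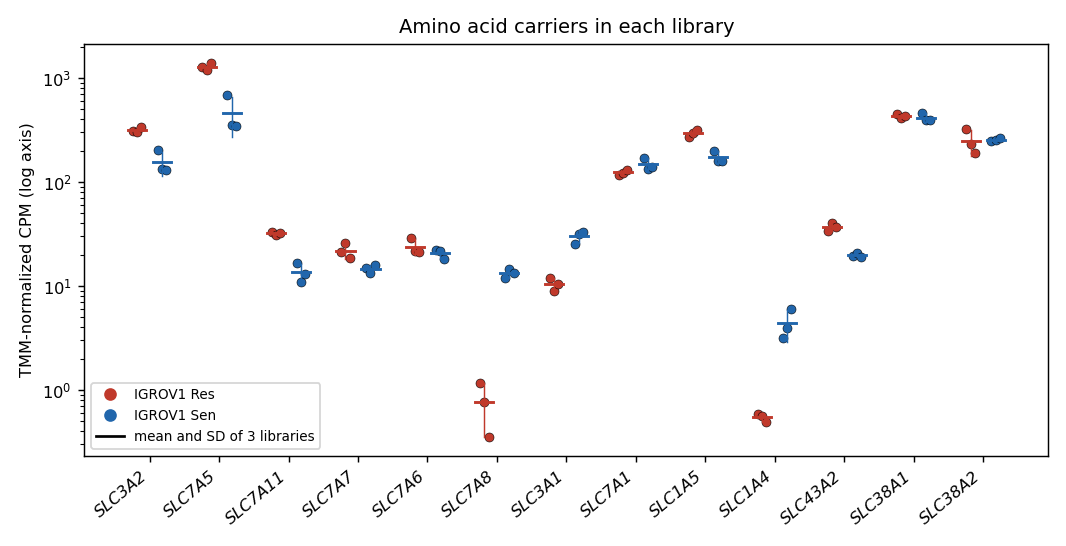
TMM-normalized CPM on a log axis (y axis) of 13 amino acid carrier genes (x axis) in each library, with IGROV1 Res in red left of IGROV1 Sen in blue, and the mean and SD of 3 libraries. SLC7A5 lies at 1187 to 1398 CPM in IGROV1 Res, against 346 to 687 CPM in IGROV1 Sen, and SLC7A8 at 0.350 to 1.17 CPM, against 11.8 to 14.7 CPM.

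System A showed no such shift. SLC38A1 had 449, 414 and 432 CPM in IGROV1 Res, against 461, 390 and 392.5 CPM in IGROV1 Sen (log2 fold change 0.06, edgeR adjusted p = 0.644). SLC38A2, which rises upon amino acid starvation, had 324, 231 and 189 CPM in IGROV1 Res, against 248, 250 and 265 CPM in IGROV1 Sen. The IGROV1 Res libraries thus spanned all IGROV1 Sen libraries. SLC38A9, the lysosomal arginine sensor upstream of mTORC1, had 12.1, 11.8 and 12.3 CPM in IGROV1 Res, against 11.2, 12.4 and 12.7 CPM in IGROV1 Sen. None of the 8 tested members of family 38 was upregulated and 3 were downregulated, against 17.4% and 18.3% of all genes tested. One of the 3, SLC38A10, chosen after its values were seen, lost its call without IGROV1 Res replicate 2 or IGROV1 Sen replicate 2 (edgeR adjusted p = 0.0637 and 0.0635).

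In family 6, whose members take up solutes with sodium and chloride, the creatine carrier SLC6A8 had 29.2, 38.9 and 32.1 CPM in IGROV1 Res, against 67.4, 67.8 and 62.8 CPM in IGROV1 Sen. It was downregulated, with a log2 fold change of -0.98 (SE 0.11, edgeR adjusted p = 0.00019). The taurine carrier SLC6A6 was the most abundant of its family at 162 to 189 CPM in IGROV1 Res and 191 to 218 CPM in IGROV1 Sen, and was not called (log2 fold change -0.17, edgeR adjusted p = 0.175). SLC6A3, the dopamine transporter, chosen after its values were seen, had 1 count over the IGROV1 Res libraries and 58 over the IGROV1 Sen libraries, a ratio of 58.0 of IGROV1 Sen over IGROV1 Res (95% counting interval 10 to 2330). SLC1A2, a glutamate carrier of glia also chosen after its values were seen, did not pass the filter, with 41 counts over the IGROV1 Res libraries and 2 over the IGROV1 Sen libraries (ratio 20.5, 95% counting interval 5.32 to 175). The intervals cover counting error only.

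Sugar carriers were led by SLC2A1 (GLUT1), the glucose carrier of most cells, which was upregulated, while SLC2A12 (GLUT12) and the inositol carrier SLC2A13 were downregulated. SLC2A1 had 353, 315 and 310 CPM in IGROV1 Res, against 264, 170 and 171 CPM in IGROV1 Sen (log2 fold change 0.69, SE 0.16, edgeR adjusted p = 0.00903). SLC2A12 had 89.9, 72.4 and 71.2 CPM in IGROV1 Res, against 142, 151 and 156 CPM in IGROV1 Sen (log2 fold change -0.94, SE 0.10, edgeR adjusted p = 0.000159). The groups did not overlap in either gene. In SLC2A12, 38% of exon windows are shared with other genes, most with TBPL1, whose own log2 fold change was -0.20 (edgeR adjusted p = 0.128). The summed level of family 2 was 110, 99.0 and 96.4 CPM per kilobase in IGROV1 Res, against 103, 84.0 and 85.4 in IGROV1 Sen, with overlapping groups, but SLC2A1 made up 67.9% of it in IGROV1 Res, against 46.6% in IGROV1 Sen, and SLC2A12 17.1%, against 37.4%. The sums overlapped while the shares of both genes did not.

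SLC2A3 (GLUT3), the neuronal glucose carrier, had 2.92, 2.24 and 1.05 CPM in IGROV1 Res, against 0, 0.132 and 0.140 CPM in IGROV1 Sen, below the level of 3 counts. It was upregulated (log2 fold change 4.32, SE 0.66, edgeR adjusted p = 0.00094), and 12.1% of its windows are shared, most with SLC2A14. SLC2A4 (GLUT4), the insulin-responsive carrier of muscle and fat, had 1.46, 2.10 and 2.38 CPM in IGROV1 Res, against 3.07, 3.30 and 3.15 CPM in IGROV1 Sen. The groups did not overlap, but it was not called (log2 fold change -0.68, edgeR adjusted p = 0.0549). SLC2A13 had a log2 fold change of -0.70 (edgeR adjusted p = 0.0147), a call that was lost without IGROV1 Res replicate 3 or IGROV1 Sen replicate 3 (edgeR adjusted p = 0.0546 and 0.0794).

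Family 5 couples uptake to sodium. SLC5A5, the iodide carrier of the thyroid, had 55 counts over the IGROV1 Res libraries and 2 over the IGROV1 Sen libraries, a ratio of 27.5 (95% counting interval 7.26 to 233). SLC5A9, a carrier of mannose and related sugars, had 5.11, 4.48 and 5.67 CPM in IGROV1 Res, against 1.26, 2.44 and 1.61 CPM in IGROV1 Sen (log2 fold change 1.504, SE 0.26, edgeR adjusted p = 0.002). Both were higher in every IGROV1 Res library. The inositol carrier SLC5A3 had 33.9, 27.9 and 25.9 CPM in IGROV1 Res, against 29.7, 29.9 and 33.1 CPM in IGROV1 Sen, with overlapping groups. Of the putative sugar carriers of family 45, SLC45A3 had 26.4, 19.2 and 18.7 CPM in IGROV1 Res, against 12.2, 8.39 and 9.53 CPM in IGROV1 Sen (log2 fold change 1.10, SE 0.19, edgeR adjusted p = 0.00164). SLC45A4 had 46.98, 45.04 and 41.05 CPM in IGROV1 Res, against 24.2, 28.3 and 31.1 CPM in IGROV1 Sen (log2 fold change 0.67, SE 0.11, edgeR adjusted p = 0.00161).

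Of 11 genes that control or trap glucose uptake, 3 were upregulated (27.3%, against 17.4% of all genes tested) and 1 was downregulated (9.09%, against 18.3%). TBC1D4 (AS160), an AKT substrate that holds back the delivery of SLC2A4 to the membrane, averaged 9.43 CPM in IGROV1 Res and 0.746 CPM in IGROV1 Sen (log2 fold change 3.63, edgeR adjusted p = 3.26e-05). ARRDC4, an arrestin relative that reduces glucose uptake, had a log2 fold change of 1.55 (edgeR adjusted p = 0.000387). Its relative ARRDC3 had -0.92 (edgeR adjusted p = 0.0185), with overlapping groups, and lost its call when any of IGROV1 Res replicates 1 and 3 or IGROV1 Sen replicates 2 and 3 was left out (edgeR adjusted p = 0.0567 to 0.0654). RAB10, which acts in the same delivery step as TBC1D4, had 0.29, and lost its call without IGROV1 Sen replicate 2 or 3 (edgeR adjusted p = 0.0598 and 0.0574). HK1 and HK2, the hexokinases that trap glucose, were not called.

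**Figure D4:**
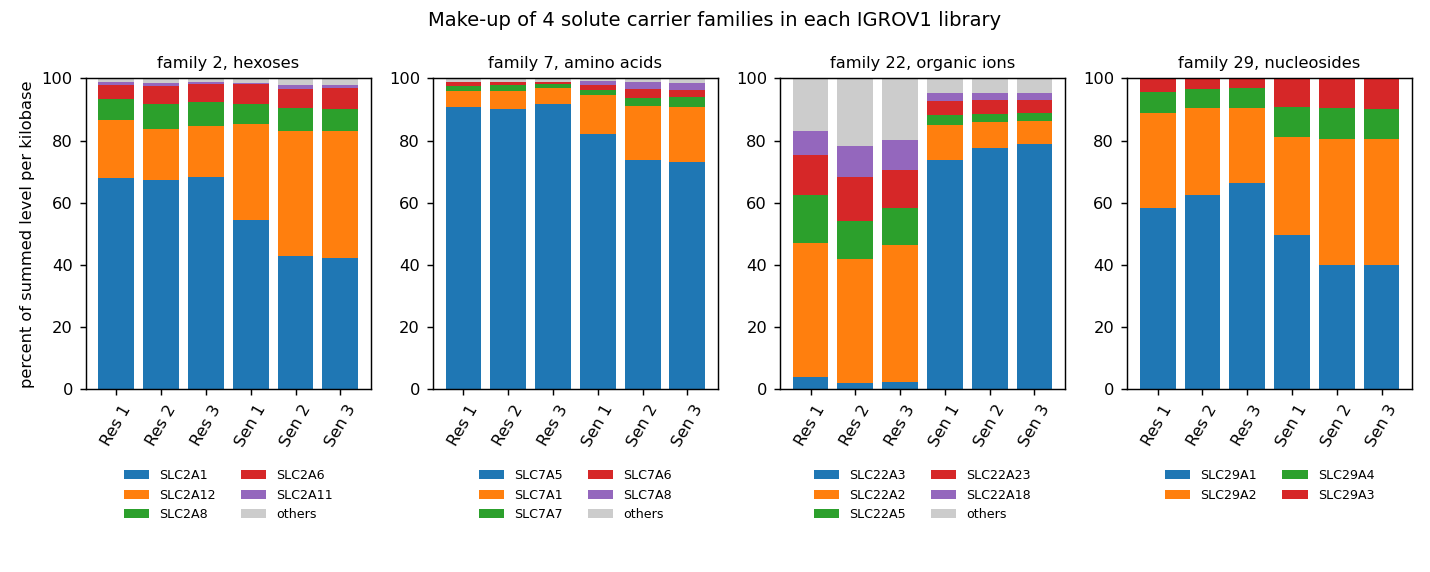
Percent of the summed level per kilobase of exon (y axis) taken by each member of families 2, 7, 22 and 29 in each library (x axis), with the IGROV1 Res libraries left of the IGROV1 Sen libraries. SLC22A3 takes 2.82% of family 22 on average in IGROV1 Res, against 76.8% in IGROV1 Sen, and SLC2A1 67.9% of family 2, against 46.6%.

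Of the monocarboxylate carriers of family 16, SLC16A1 and SLC16A3 move lactate. The family had 3 of 8 tested members upregulated (37.5%, against 17.4% of all genes tested) and 2 downregulated (25%, against 18.3%). SLC16A1 (MCT1) had 209, 189 and 197 CPM in IGROV1 Res, against 207, 163 and 167 CPM in IGROV1 Sen, and was not called (log2 fold change 0.15, edgeR adjusted p = 0.304). SLC16A3 (MCT4) was not called either, at 6.21, 7.29 and 6.03 CPM in IGROV1 Res, against 5.11, 4.36 and 4.97 CPM in IGROV1 Sen (log2 fold change 0.44, edgeR adjusted p = 0.075). SLC16A5 had 76.3, 91.0 and 79.4 CPM in IGROV1 Res, against 55.8, 58.5 and 54.3 CPM in IGROV1 Sen (log2 fold change 0.55, SE 0.09, edgeR adjusted p = 0.00142). The low-level member SLC16A4 had 2.27, 2.10 and 1.82 CPM in IGROV1 Res, against 0.629, 0.859 and 0.631 CPM in IGROV1 Sen (log2 fold change 1.53, SE 0.28, edgeR adjusted p = 0.00284). SLC16A10, a carrier of aromatic amino acids, had a log2 fold change of -0.40, and its call was lost when any of IGROV1 Res replicates 1 and 3 or IGROV1 Sen replicates 2 and 3 was left out (edgeR adjusted p = 0.0538 to 0.116). BSG, the chaperone of SLC16A1 and SLC16A3, averaged 1009 CPM in IGROV1 Res and 1218 CPM in IGROV1 Sen (log2 fold change -0.27, edgeR adjusted p = 0.0426), and 4 of 7 chaperones and accessory subunits of carriers were downregulated (against 18.3% of all genes tested) with none upregulated (against 17.4%). The call of BSG was lost when any single library other than IGROV1 Res replicate 3 was left out (edgeR adjusted p = 0.0595 to 0.181), and that of AHCYL1, another of the 4, when any single library was (edgeR adjusted p = 0.0592 to 0.137).

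Phosphate carriers were abundant. SLC34A2, the sodium-phosphate carrier of epithelia, had 750, 670 and 707 CPM in IGROV1 Res, against 660, 536 and 514 CPM in IGROV1 Sen. Its log2 fold change of 0.32 was close to the threshold (edgeR adjusted p = 0.0491), and its call was lost when any single library other than IGROV1 Sen replicate 1 was left out (edgeR adjusted p = 0.0801 to 0.200). SLC20A1 had 78.0, 70.2 and 62.6 CPM in IGROV1 Res, against 58.4, 49.3 and 49.5 CPM in IGROV1 Sen (log2 fold change 0.42, edgeR adjusted p = 0.0134), a call lost without IGROV1 Sen replicate 2 or 3 (edgeR adjusted p = 0.0602 and 0.0624). SLC20A2 was not called. SLC13A4, a sulfate carrier, had 2.56, 3.29 and 1.82 CPM in IGROV1 Res, against 4.72, 12.9 and 12.8 CPM in IGROV1 Sen (log2 fold change -1.99, SE 0.39, edgeR adjusted p = 0.00351). The number of upregulated members of this class was 2 without IGROV1 Sen replicate 2 or 3, and 3 without IGROV1 Res replicate 2 or 3. Over all genes, 11.3% and 11% were upregulated without these IGROV1 Sen replicates, and 12.2% and 13.4% without these IGROV1 Res replicates. The share over all genes in the reported fit was 17.4%.

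SLC22A3 (OCT3), which takes up organic cations such as amines and metformin, had 1.39, 0.770 and 0.911 CPM in IGROV1 Res, against 79.7, 110 and 114 CPM in IGROV1 Sen. Its log2 fold change of -6.62 (SE 0.22, edgeR adjusted p = 1.63e-07) was the largest fitted decrease among the members tested. It (ENSG00000146477) lies on chromosome 6 of GRCh38 from 160348268 to 160452581, 70630 bases after the end of SLC22A2. SLC22A2 (OCT2), the renal organic cation carrier, from 160171061 to 160277638, had 27.9, 28.3 and 29.4 CPM in IGROV1 Res, against 22.1, 21.2 and 19.6 CPM in IGROV1 Sen. It was upregulated (log2 fold change 0.45, SE 0.10, edgeR adjusted p = 0.00652). These neighbours therefore moved in opposite directions.

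SLC22A3 was the main member of family 22 in IGROV1 Sen, and the family sum was 10.5, 11.5 and 10.8 CPM per kilobase in IGROV1 Res, against 32.2, 42.1 and 43.4 in IGROV1 Sen. SLC22A2 made up 42.4% of it in IGROV1 Res, against 8.86% in IGROV1 Sen. SLC22A17, a receptor for lipocalin-bound iron, had 0.731, 0.911 and 0.560 CPM in IGROV1 Res, against 1.89, 2.31 and 2.73 CPM in IGROV1 Sen (log2 fold change -1.65, SE 0.30, edgeR adjusted p = 0.00262). It lies 162632 bases after SLC7A8 on chromosome 14, and both were lower in every IGROV1 Res library. The carnitine carrier SLC22A5 was called at a log2 fold change of 0.38 (edgeR adjusted p = 0.0419), and its call was lost when any single library other than IGROV1 Res replicate 3 was left out (edgeR adjusted p = 0.0585 to 0.119). SLC47A1 (MATE1), which exports organic cations in exchange for protons, was not called (log2 fold change 0.45, edgeR adjusted p = 0.0523). Organic anion carriers of the SLCO type also transport drugs and hormones. Of 3 tested, SLCO2B1 was upregulated (33.3%, against 17.4% of all genes tested) and SLCO3A1 was downregulated (33.3%, against 18.3%). SLCO3A1 averaged 3.37 CPM in IGROV1 Res and 25.1 CPM in IGROV1 Sen.

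Metal carriers of family 39 (ZIP) bring zinc and other metals into the cytosol, and those of family 30 (ZnT) move zinc out of it. SLC39A4 (ZIP4), the intestinal zinc carrier, had 100, 86.5 and 92.2 CPM in IGROV1 Res, against 53.9, 45.4 and 44.4 CPM in IGROV1 Sen (log2 fold change 0.96, SE 0.10, edgeR adjusted p = 0.000118). SLC39A14 (ZIP14), which carries zinc, iron and manganese, had 301, 248 and 276 CPM in IGROV1 Res, against 210, 165 and 168 CPM in IGROV1 Sen (log2 fold change 0.60, SE 0.12, edgeR adjusted p = 0.00333). Its closest relative, SLC39A8 (ZIP8), went the other way, with 42.2, 23.96 and 25.3 CPM in IGROV1 Res, against 91.4, 96.8 and 102 CPM in IGROV1 Sen (log2 fold change -1.67, SE 0.19, edgeR adjusted p = 0.000196). None of the 3 had overlapping groups. The abundant members SLC39A7, SLC39A1 and SLC39A6 were not called, and 58.6% of the exon windows of SLC39A1 are shared with other genes. The family sum was 290, 262 and 284 CPM per kilobase in IGROV1 Res, against 280, 246 and 244 in IGROV1 Sen, with overlapping groups. SLC39A7, which releases zinc from the endoplasmic reticulum, had 228, 206 and 226 CPM in IGROV1 Res, against 237, 216 and 212 CPM in IGROV1 Sen.

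**Figure D5:**
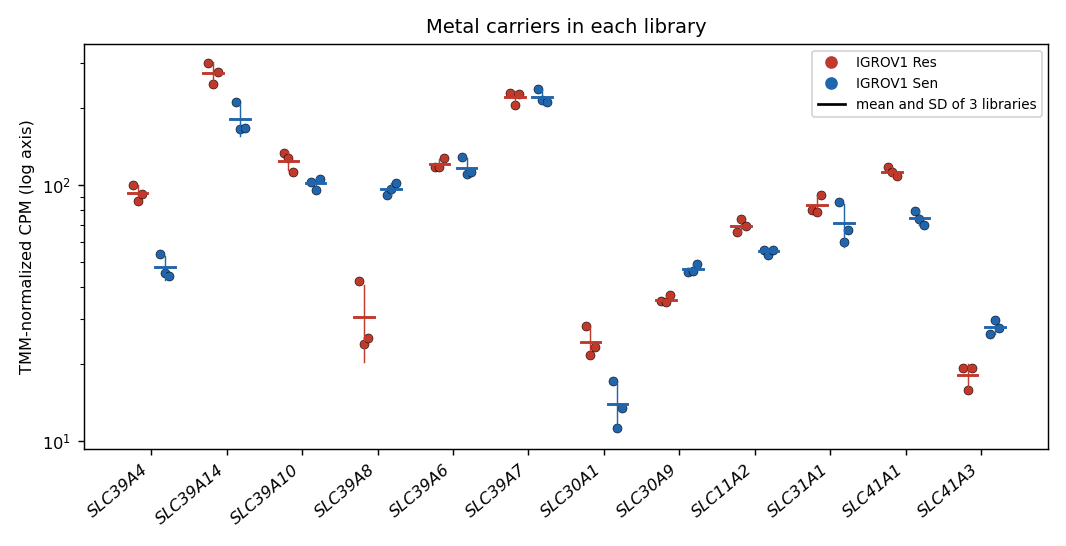
TMM-normalized CPM on a log axis (y axis) of 12 carrier genes of zinc, iron, copper and magnesium (x axis) in each library, with IGROV1 Res in red left of IGROV1 Sen in blue, and the mean and SD of 3 libraries. SLC39A4 and SLC39A14 lie higher in every IGROV1 Res library, whereas SLC39A8 lies at 23.96 to 42.2 CPM in IGROV1 Res, against 91.4 to 102 CPM in IGROV1 Sen.

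SLC30A1 (ZnT1), which exports zinc from the cell, had 28.3, 21.7 and 23.4 CPM in IGROV1 Res, against 17.1, 11.2 and 13.5 CPM in IGROV1 Sen (log2 fold change 0.81, SE 0.17, edgeR adjusted p = 0.00509). SLC30A9 had 35.2, 34.95 and 37.1 CPM in IGROV1 Res, against 45.9, 46.2 and 49.3 CPM in IGROV1 Sen (log2 fold change -0.40, SE 0.08, edgeR adjusted p = 0.00493). Metallothioneins bind zinc in the cytosol and, like SLC30A1, are targets of the zinc sensor MTF1. Of the 4 genes tested in this list, MT1X and MT2A were downregulated (50%, against 18.3% of all genes tested), and none was upregulated (against 17.4%). MT1X and MT2A had log2 fold changes of -1.11 and -1.04 (edgeR adjusted p = 0.00677 and 0.012). The magnesium carriers of family 41 were divided. SLC41A1 had 118, 112 and 109 CPM in IGROV1 Res, against 79.3, 74.0 and 70.0 CPM in IGROV1 Sen (log2 fold change 0.60, SE 0.08, edgeR adjusted p = 0.000483), and SLC41A3 had 19.3, 15.8 and 19.3 CPM in IGROV1 Res, against 26.3, 29.7 and 27.8 CPM in IGROV1 Sen (log2 fold change -0.62, SE 0.12, edgeR adjusted p = 0.00272). SLC11A2 (DMT1), the proton-coupled iron carrier, had 65.4, 73.6 and 69.6 CPM in IGROV1 Res, against 56.1, 53.4 and 55.9 CPM in IGROV1 Sen (log2 fold change 0.34, edgeR adjusted p = 0.01), a call lost without IGROV1 Sen replicate 2 (edgeR adjusted p = 0.056). Of 7 genes of iron uptake and storage, 1 was upregulated (14.3%, against 17.4% of all genes tested) and 1 downregulated (14.3%, against 18.3%). These encode the iron-regulatory proteins, ACO1 at a log2 fold change of 0.38 (edgeR adjusted p = 0.00526) and IREB2 at -0.23, whose call was lost when any of IGROV1 Res replicates 2 and 3 or IGROV1 Sen replicates 2 and 3 was left out (edgeR adjusted p = 0.0772 to 0.117). The copper carrier SLC31A1 was not called. Without IGROV1 Sen replicate 2, the metal carriers had 4 upregulated members in place of 7, while the share over all genes was 11.3% in place of 17.4%.

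Some upregulated members share a chromosome. SLC39A4, SLC39A14, SLC45A4 and the riboflavin carrier SLC52A2 lie on chromosome 8. There 4 of 6 tested members were upregulated (against 17.4% of all genes tested) and none was downregulated (against 18.3%). The median log2 fold change of all 457 genes tested on chromosome 8 was 0.39. SLC39A4 starts 48456 bases after the end of SLC52A2. On chromosome 3 the median of all 771 genes tested was -0.27. There 4 of 10 tested members, SLC41A3 among them, were downregulated (against 18.3% of all genes tested) and none was upregulated (against 17.4%). Without IGROV1 Res replicate 3, SLC4A7 and SLC26A6, which are among these 4, lost their calls (edgeR adjusted p = 0.0901 and 0.063). Shares of called genes among all genes of these chromosomes are not given here, and the part of these chromosomes in the results was not tested. SLC41A1 starts 108634 bases after the end of SLC45A3 on chromosome 1, whose median was -0.14, and both were upregulated.

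Carriers of nucleosides, vitamins and heme were divided within families. The 4 equilibrative nucleoside carriers of family 29 were all called, 1 upward (25%, against 17.4% of all genes tested) and 3 downward (75%, against 18.3%). SLC29A1 (ENT1), which takes up nucleosides and nucleoside drugs at the cell surface, had 165, 186 and 201 CPM in IGROV1 Res, against 163, 143 and 139 CPM in IGROV1 Sen (log2 fold change 0.31, edgeR adjusted p = 0.0362), and its call was lost when any of IGROV1 Res replicates 2 and 3 or IGROV1 Sen replicates 2 and 3 was left out (edgeR adjusted p = 0.103 to 0.146). SLC29A3, which exports nucleosides from lysosomes, had 15.6, 11.9 and 11.7 CPM in IGROV1 Res, against 36.6, 41.9 and 42.5 CPM in IGROV1 Sen (log2 fold change -1.63, SE 0.13, edgeR adjusted p = 2.59e-05). SLC29A4, which also carries monoamines, had 24.4, 24.1 and 24.8 CPM in IGROV1 Res, against 42.6, 47.04 and 44.8 CPM in IGROV1 Sen (log2 fold change -0.88, SE 0.09, edgeR adjusted p = 8.53e-05). SLC29A2 (ENT2), chosen after its values were seen, had 53.7, 51.5 and 45.2 CPM in IGROV1 Res, against 63.8, 89.9 and 87.1 CPM in IGROV1 Sen (log2 fold change -0.68, SE 0.13, edgeR adjusted p = 0.00384). SLC29A1 thereby made up 62.4% of the family's summed level per kilobase in IGROV1 Res, against 43.1% in IGROV1 Sen.

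SLC48A1 (HRG1), which moves heme out of lysosomes, had 165, 195 and 170 CPM in IGROV1 Res, against 97.2, 96.3 and 95.9 CPM in IGROV1 Sen (log2 fold change 0.87, SE 0.09, edgeR adjusted p = 7.34e-05). SLC23A1, a carrier of ascorbate, had 2.63, 3.29 and 3.71 CPM in IGROV1 Res, against 1.57, 1.52 and 1.47 CPM in IGROV1 Sen (log2 fold change 1.08, SE 0.24, edgeR adjusted p = 0.0069). The riboflavin carriers parted. SLC52A2 had 95.6, 84.3 and 95.8 CPM in IGROV1 Res, against 67.9, 68.3 and 67.6 CPM in IGROV1 Sen (log2 fold change 0.44, edgeR adjusted p = 0.00283), with 29.8% of its exon windows shared, most with FBXL6, whose own log2 fold change was -0.24 (edgeR adjusted p = 0.274). SLC52A3 had 0.292, 0.420 and 0.350 CPM in IGROV1 Res, against 2.60, 2.44 and 3.22 CPM in IGROV1 Sen (log2 fold change -2.92, SE 0.31, edgeR adjusted p = 0.000133). The fatty acid carrier SLC27A4 was upregulated (log2 fold change 0.41, edgeR adjusted p = 0.0205), a call lost when any of IGROV1 Res replicates 1 and 3 or IGROV1 Sen replicates 2 and 3 was left out (edgeR adjusted p = 0.0582 to 0.0854). The reduced folate carrier SLC19A1 and the choline carrier SLC44A1 were not called. Of the 4 tested members of family 44, SLC44A3 and SLC44A2, both chosen after their values were seen, were downregulated (50%, against 18.3% of all genes tested). SLC44A3 had 69.5, 51.1 and 59.2 CPM in IGROV1 Res, against 106, 94.02 and 97.2 CPM in IGROV1 Sen (log2 fold change -0.72, edgeR adjusted p = 0.00115). SLC44A2 had 53.7, 85.6 and 75.3 CPM in IGROV1 Res, against 98.7, 104 and 101 CPM in IGROV1 Sen (log2 fold change -0.50, edgeR adjusted p = 0.0256), a call lost without IGROV1 Sen replicate 2 or 3 (edgeR adjusted p = 0.0712 and 0.0631). Without IGROV1 Sen replicate 2 or 3, the class had 3 upregulated members in place of 6. In these fits, 11.3% and 11% of all genes were upregulated, in place of 17.4%.

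Few ion carriers were called. SLC9A8, a sodium-proton exchanger of the Golgi, had 29.4, 30.96 and 26.1 CPM in IGROV1 Res, against 15.2, 17.6 and 16.2 CPM in IGROV1 Sen (log2 fold change 0.82, SE 0.11, edgeR adjusted p = 0.000562). SLC9A2, an exchanger of the epithelial surface, had 2.70, 0.770 and 1.82 CPM in IGROV1 Res, against 5.35, 5.81 and 5.75 CPM in IGROV1 Sen (log2 fold change -1.68, SE 0.34, edgeR adjusted p = 0.00461). SLC4A2, the main anion exchanger here, had 321, 247 and 258 CPM in IGROV1 Res, against 277, 290 and 281 CPM in IGROV1 Sen, and the sulfate carrier SLC26A2 had 765, 754 and 632 CPM in IGROV1 Res, against 565, 622 and 649 CPM in IGROV1 Sen. Neither was called, and the groups overlapped in both. SLC26A6, an exchanger of chloride, bicarbonate and oxalate, had 61.1, 48.96 and 41.05 CPM in IGROV1 Res, against 59.8, 88.3 and 88.6 CPM in IGROV1 Sen, so that IGROV1 Res replicate 1 lay above IGROV1 Sen replicate 1. It was called (log2 fold change -0.65, edgeR adjusted p = 0.0187), and not when any of IGROV1 Res replicates 2 and 3 or IGROV1 Sen replicates 2 and 3 was left out (edgeR adjusted p = 0.063 to 0.0728).

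The bicarbonate carrier SLC4A7 and the sodium-calcium exchanger SLC8A1 had log2 fold changes of -0.34 and -0.37. The call of SLC4A7 was lost without IGROV1 Res replicate 3 or IGROV1 Sen replicate 3 (edgeR adjusted p = 0.0901 and 0.0897), and that of SLC8A1 without IGROV1 Sen replicate 2 or 3 (edgeR adjusted p = 0.069 and 0.0749). SLC12A2 (NKCC1), which brings sodium, potassium and chloride into the cell, had 62.3, 54.1 and 55.3 CPM in IGROV1 Res, against 49.5, 43.9 and 48.8 CPM in IGROV1 Sen (log2 fold change 0.27, edgeR adjusted p = 0.0445), and its call was lost when any single library other than IGROV1 Sen replicate 1 was left out (edgeR adjusted p = 0.0626 to 0.181). STK39 (SPAK), the kinase that activates SLC12A2, had 115, 129 and 129 CPM in IGROV1 Res, against 30.3, 30.1 and 27.2 CPM in IGROV1 Sen (log2 fold change 2.09, edgeR adjusted p = 6.34e-07), whereas OXSR1, the related kinase, had a log2 fold change of -0.30 (edgeR adjusted p = 0.0417) that lost its call when any single library was left out (edgeR adjusted p = 0.0564 to 0.107). WNK1, which activates both kinases, was not called. Over a list of such kinases that also holds the non-kinase gene NEDD4L, 1 of 9 tested was upregulated (11.1%, against 17.4% of all genes tested). In the same list 2 were downregulated (22.2%, against 18.3%). Carbonic anhydrases that are active enzymes supply bicarbonate and protons. Of 6 tested genes of this family, counted whether or not they encode an active enzyme, 2 were upregulated (33.3%, against 17.4% of all genes tested). Another 3 were downregulated (50%, against 18.3%). Among the latter, CA11 and CA13 lost their calls in 4 of the 6 fits with a library left out. One such fit was that without IGROV1 Res replicate 2 (edgeR adjusted p = 0.0602 and 0.132). CA2 averaged 123 CPM in IGROV1 Res and 488 CPM in IGROV1 Sen (log2 fold change -1.99, edgeR adjusted p = 6.59e-06). With single libraries left out, ion carriers had 1 to 5 upregulated and 1 to 4 downregulated members. The extremes were 5 upregulated without IGROV1 Res replicate 3, where 13.4% of all genes were, and 1 downregulated without IGROV1 Sen replicate 3, where 13% were. The low count of upregulated ion carriers thus depended in part on IGROV1 Res replicate 3.

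In the endoplasmic reticulum and Golgi, carriers of family 35 bring nucleotide sugars to the enzymes that build glycans. SLC35A3, the carrier of UDP-N-acetylglucosamine, had 11.2, 11.4 and 8.62 CPM in IGROV1 Res, against 5.27, 6.34 and 6.38 CPM in IGROV1 Sen (log2 fold change 0.79, SE 0.17, edgeR adjusted p = 0.00626). SLC35A1, the carrier of CMP-sialic acid, and SLC35A2, the carrier of UDP-galactose, were called at log2 fold changes of 0.48 and 0.33. The call of SLC35A1 was lost when any single library other than IGROV1 Res replicate 1 was left out (edgeR adjusted p = 0.0737 to 0.129), and that of SLC35A2 when any other than IGROV1 Sen replicate 1 was (edgeR adjusted p = 0.0503 to 0.107). In SLC35A1, 45.8% of exon windows are shared with other genes. SLC37A1, a glucose 6-phosphate carrier, had 0.804, 0.560 and 0.841 CPM in IGROV1 Res, against 3.70, 3.57 and 3.99 CPM in IGROV1 Sen (log2 fold change -2.34, SE 0.26, edgeR adjusted p = 0.000164). SLC37A4, which brings glucose 6-phosphate into the endoplasmic reticulum, was not called (log2 fold change -0.29, edgeR adjusted p = 0.0594).

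Vesicular carriers load transmitters into secretory vesicles and anions into or out of lysosomes, and 4 were tested. SLC17A5 (sialin), which exports sialic acid from lysosomes, had 31.9, 31.9 and 31.2 CPM in IGROV1 Res, against 24.4, 24.6 and 26.1 CPM in IGROV1 Sen (log2 fold change 0.34, edgeR adjusted p = 0.0161), a call lost without IGROV1 Res replicate 2 or IGROV1 Sen replicate 2 (edgeR adjusted p = 0.0523 and 0.0747). SLC18A3, the vesicular acetylcholine transporter, had 1.02, 1.33 and 1.33 CPM in IGROV1 Res, against 0.472, 0.198 and 0.630 CPM in IGROV1 Sen (log2 fold change 1.501, edgeR adjusted p = 0.0187). Its call was lost without IGROV1 Res replicate 2, IGROV1 Res replicate 3 or IGROV1 Sen replicate 2 (edgeR adjusted p = 0.0682, 0.0561 and 0.0803). SLC18A2, the monoamine carrier, was not called (log2 fold change -0.80, edgeR adjusted p = 0.062), and 52% of its exon windows are shared with other genes.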

How the data were processed

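RNA of IGROV1 Res and IGROV1 Sen cells was measured in 3 libraries per group. The authors counted single-end reads per Ensembl gene and deposited raw counts after a quality step with no stated rule; the submitters' processing notes name edgeR and hg18, and the aligner, counting tool and strand setting are not given in the sources used here. The authors' second table also holds their fold changes and p-values, which were not used. Only its gene symbols were.

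Membership followed the symbol alone, whereas the members named and the lists of other genes were chosen with earlier results of these data known. The analysis used R 4.3.3 and edgeR 4.0.16, with filterByExpr (minimum count 10, minimum total 15), TMM scaling, a quasi-likelihood fit (glmQLFit, glmQLFTest) on condition alone, and Benjamini-Hochberg adjustment over 13791 genes. The SE is the log2 fold change, unsigned, divided by the root of F. CPM use TMM-scaled totals. Totals of 12808922 to 15241394 counts limit what low genes can show. Groups with 1 to 3 counts in total are given as ratios of summed counts with exact 95% intervals. Solute classes were assigned by family number. Gene coordinates and exon lengths came from GENCODE release 29 on GRCh38, promoters from RefSeq on GRCh38.p14, and shared sequence was measured as 60-base exon windows found in other genes. Reads of overlapping genes may have been assigned to either gene.

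Named members are the 10 largest increases and decreases without overlap and averaging 5 CPM or more in the higher group, up to 3 called members per class and direction with the smallest adjusted p, textbook carriers, and the 10 most abundant per kilobase. SLC40A1, among those textbook carriers, was not analysed here, and a few genes that the rule names are not reported here. Alternatives were RLE, upper-quartile or no composition factors, no filter or a minimum of 10 counts in every library, edgeR's likelihood ratio test, DESeq2 1.42.0, a replicate block, each library left out, IGROV1 Sen replicates 2 and 3 summed, the 2 libraries with a low mitochondrial share left out, an adjusted p under 0.01, and a log2 fold change of 1 or more in either direction. The fit was tested on simulated data with known changes.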

Additional observations from a re-analysis of the deposited data

How the results depend on the processing

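Upregulated members numbered 42 in the reported fit, 25 with a replicate block, 23 at an adjusted p under 0.01 and 11 at a log2 fold change of 1 or more, and 24 to 51 with single libraries left out. Downregulated members numbered 30, 25 with the block, 16 at a log2 fold change of -1 or less, and 24 to 33 with single libraries left out. Replicate numbers were not treated as pairs, since no source says that they mark shared cultures or days. Deviations of same-numbered libraries from their group means correlated at -0.465, 0.113 and -0.474. Those of differently numbered libraries ranged from -0.521 (IGROV1 Res replicate 3 with IGROV1 Sen replicate 2) to 0.61 (IGROV1 Res replicate 3 with IGROV1 Sen replicate 1). The latter are the libraries with a low mitochondrial share. Whether libraries of different groups share a batch was not tested. The other normalizations, filters and tests gave 37 to 46 upregulated and 22 to 35 downregulated members, the sum of IGROV1 Sen replicates 2 and 3 gave 28 and 24, and leaving out the libraries with a low mitochondrial share gave 50 and 32. Over the 16 other settings with an adjusted p of their own, 20 upregulated and 13 downregulated members kept their call in all. Among the 82 named members, direction changed in 20 cases, in 6 members that were not called. These were SLC1A3 without IGROV1 Res replicate 1 (-0.267) or IGROV1 Sen replicate 1 (-0.00751; range -0.267 to 0.205 with single libraries left out), SLC4A2 without IGROV1 Res replicate 2 (0.0382) or 3 (0.00813; -0.162 to 0.0382), and SLC5A3 without IGROV1 Res replicate 3 (0.00136; -0.197 to 0.00136). SLC38A2 changed without IGROV1 Res replicate 2 (0.0165) or 3 (0.127; -0.274 to 0.127) or both libraries with a low mitochondrial share (0.108). SLC39A7 changed with no composition factor (0.00281), without IGROV1 Res replicate 2 (0.0419) or IGROV1 Sen replicate 1 (0.0427; -0.0425 to 0.0427), or without both such libraries (0.0215). SLC38A9, at -0.0032 in the reported fit, changed with RLE factors (0.00333), no composition factor (0.0101), no filter (0.00227), DESeq2 (0.00305), the summed replicates (0.0168), or without IGROV1 Res replicate 2 (0.021), IGROV1 Sen replicate 2 (0.0106) or IGROV1 Sen replicate 3 (0.0308; -0.0497 to 0.0308). Their cause was not tested. Members at a few counts per library, such as SLC6A3 and SLC5A5, are limited by depth.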
